A study of Mus musculus with 27 samples.

Results

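Livers of the inbred mouse strain BALB/c taken on day 6 after weaning (ID6) were compared with livers taken on day 10 of lactation (LAC), to see which features of the lactating liver were gone and which pre-pregnancy levels had come back late in involution. The libraries were chosen by their titles, 6 of ID6 and 3 of LAC, which makes 9 of the 27 in the series. Each library is bulk RNA sequencing of a whole liver. Females of ID6 and LAC were mated when 10 to 12 weeks old and nursed litters of an even size, and the ID6 dams had their pups removed after 10 to 14 days of lactation. A never-pregnant, age-matched group (NUL, 4 libraries) gave the level to which a gene could return, and day 4 after weaning (ID4, 4 libraries) gave the sampled stage before. All animals were wild type, and the labels name no agent.

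The lactating liver is enlarged and feeds milk production, making cholesterol, fatty acids and plasma proteins at a high rate under prolactin and insulin. Sterol synthesis is driven by SREBP2, a membrane-bound transcription factor released when sterols are low, and fatty acid synthesis mainly by SREBP1c and ChREBP. After weaning the liver loses its added mass, and macrophages take part in clearing cells.

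Estimated counts summed to between 61234156 and 75664540 per library in ID6 and LAC. Levels are given as CPM, in which each library's counts are brought to one shared total after TMM, a correction for differences in library makeup. Albumin took 15.1% to 18.0% of counts in LAC and 8.12% to 11.9% in ID6. All 10 hepatocyte markers were present at high level in both groups, the lowest of them Hnf4a with means of 639 CPM in LAC and 674 CPM in ID6. Albumin was called lower in ID6, and the other 9 were not called in either direction. Of 9 mammary gland markers 1 was high enough to be tested, and it was not called. Summed exocrine pancreas markers ran from 9.92 to 19.2 CPM in LAC and from 11.0 to 35.8 in ID6. Of the LAC libraries 2 of 3, and of the ID6 libraries 4 of 6, were sequenced in 2 runs. The 1 LAC library with a single run gives no spread within that class, and with run number as a covariate 2646 genes were called. No label names a batch of library preparation. In the main fit p-values weighed each difference against the spread between livers within a stage, estimated over all libraries of the series. A fit of the ID6 and LAC libraries alone called 2288 of 15472 tested genes, against 2694 of 16428 in the main fit.

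Between ID6 and LAC, 2694 of 16428 tested genes (16.4%) were called at an adjusted p under 0.05 (edgeR quasi-likelihood test, Benjamini-Hochberg). Of these, 1386 (8.44% of those tested) were higher and 1308 (7.96%) lower in ID6, and 816 changed by more than 1 on the log2 scale. Of the 2694, 2230 showed no overlap between the ID6 and LAC libraries, so a lack of overlap is usual for a called gene. LAC differed from NUL in 1837 genes (11.2%), 852 higher (5.19%) and 985 lower (6%). ID6 differed from NUL in 178 genes (1.08%), 66 higher (0.402%) and 112 lower (0.682%), and 1962 genes had an unadjusted p under 0.05. Those 3 comparisons share libraries with one another, so their values are set side by side and no overlap between them is counted. The 95% interval of the difference between ID6 and NUL lay within 1 log2 unit of 0 for 12589 genes, 76.6% of those tested. In another 3759 genes that were not called, the interval reached past 1 log2 unit on at least 1 side. On log2(TPM + 1) values in place of counts, 79% of the calls between ID6 and LAC were higher, against 51.4% on counts, and the median over all genes was 0.11 against 0.02. That fit differed from the one on counts in the values, the test (limma) and the genes tested (12889).

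The naming rule took only called genes without overlap between the ID6 and LAC libraries. By it, the 10 largest rises were in Saa3, Saa2, Saa1, Dio1, Orm3, Spry4, H2-Aa, Gbp2b, Cxcl1 and Tgtp1. The 10 largest falls were in Sqle, Cyp4a10, Hbb-bt, Cyp4a14, Hba-a1, Mvd, Hba-a2, Idi1, H19 and Hbb-bs. Saa3, Saa2 and Saa1 are serum amyloids and Gbp2b and Tgtp1 interferon-inducible GTPases, while Sqle, Mvd and Idi1 make cholesterol and the 4 Hba and Hbb genes encode globins. The call of Cxcl1 (log2 fold change 1.77) did not hold in 7 of 9 fits that left out a library (kept without ID6_209 or ID6_232), and that of Tgtp1 (1.75, counts not whole in 24 libraries) in 2, without LAC_240 or LAC_213.

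**Figure D1:**
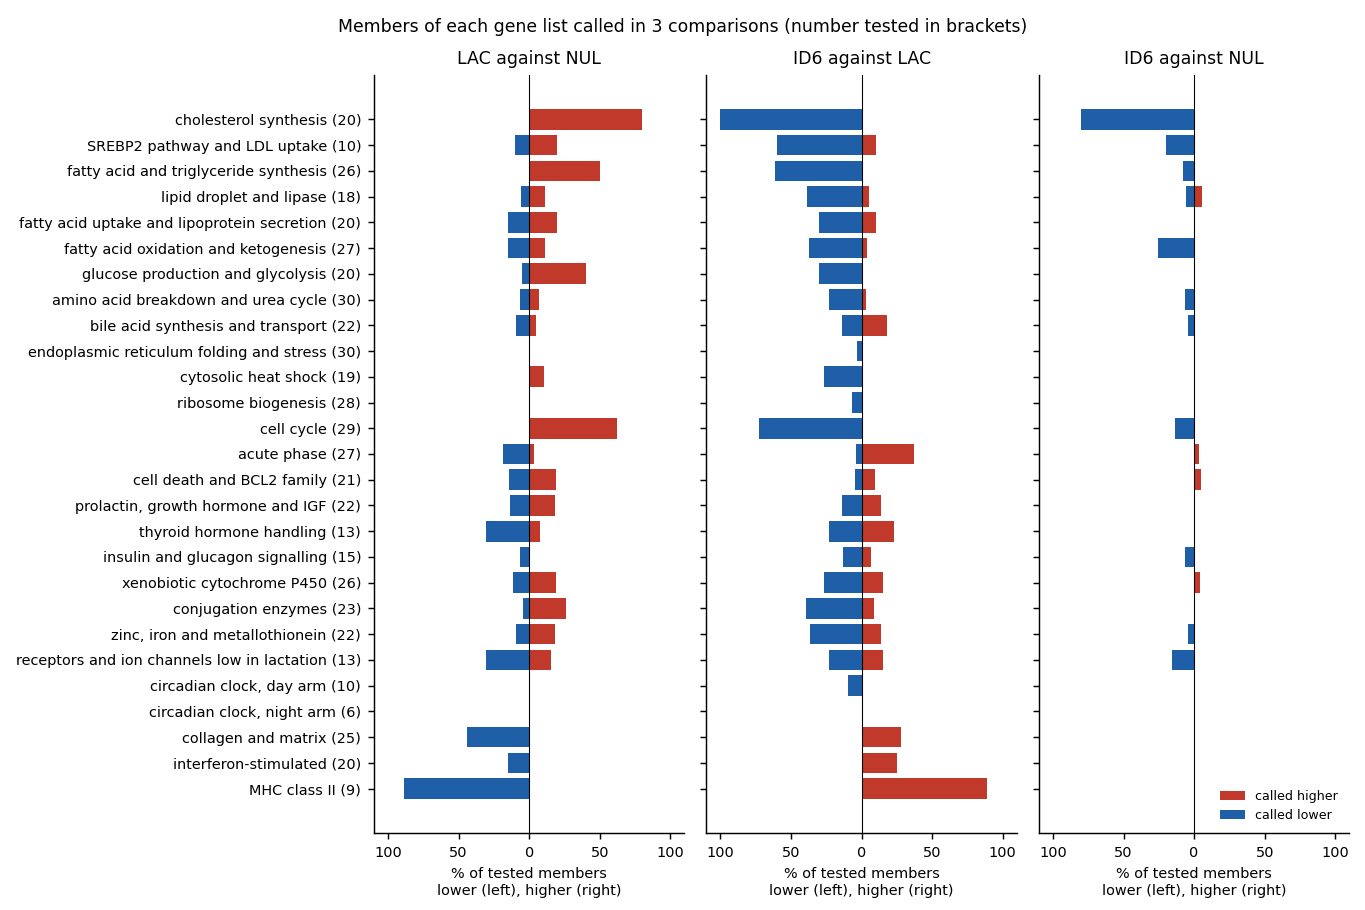
Percentage of the tested members of 27 gene lists called lower (blue, left) or higher (red, right) in 3 comparisons, by the edgeR test at an adjusted p under 0.05, with the number tested in brackets. In ID6 against LAC all 20 cholesterol synthesis genes were lower and 8 of 9 MHC class II genes higher, while in ID6 against NUL 16 of the 20 cholesterol genes were lower and no MHC class II gene was called.

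Transcripts of cholesterol synthesis fell together. All 20 enzymes of the list were called lower in ID6 than in LAC, with a median log2 fold change of -2.13 against 0.02 over all genes tested. In LAC 16 of the 20 had been higher than in NUL and none lower. At ID6 16 of the 20 were lower than in NUL, none was higher, and the median difference from NUL was -1.01.

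Sqle (ENSMUSG00000022351, chromosome 15, 59315077 to 59331192) encodes squalene epoxidase, which commits squalene to sterols. It stood at 139, 119 and 158 CPM in the libraries LAC_200, LAC_213 and LAC_240, and at 5.60 (lowest), 6.48 (median) and 12.1 CPM (highest) in ID6. The groups did not overlap, a condition of the naming rule, and the highest ID6 liver was also below the lowest NUL liver, at 25.9 CPM. The log2 fold change was -4.11 (SE 0.33, edgeR adjusted p = 3.72e-08) against LAC and -2.64 (95% interval -3.28 to -2.01, edgeR adjusted p = 4.66e-05) against NUL. At ID4 its mean was 4.14 ± 1.21 CPM (SD, n = 4), and the difference between ID4 and ID6 was not called (log2 fold change 0.95, edgeR adjusted p = 0.0787).

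Msmo1, which removes methyl groups from the sterol ring, had 129, 109 and 116 CPM in LAC and 11.6, 16.1 and 19.4 CPM (lowest, median, highest) in ID6, where the 6 livers lay close together and below every NUL liver. It fell by 2.93 on the log2 scale (SE 0.17, edgeR adjusted p = 6.7e-11), and it was 2.28 below NUL (edgeR adjusted p = 7.78e-09). Mvd, which makes isopentenyl diphosphate, fell by 3.21 and Idi1, its isomerase, by 3.15 on the log2 scale. Their differences from NUL were -1.32 and -2.26, both called, although that of Mvd was lost in 7 of 10 fits without 1 library (kept without NUL_226, ID6_201 or ID6_230; largest edgeR adjusted p 0.127, without NUL_227). Counts of Idi1 were not whole in 24 libraries. Ebp, a late sterol isomerase, fell least, by 0.34, a call lost without LAC_200 or LAC_213 and in 3 other fits.

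SREBP2 binds the sterol regulatory element, and the proximal promoters of the list were therefore searched for it. In the 250 bases before the start site, TCACNCCAC (N is any base, either strand) occurred in 1 of the 15 cholesterol genes with a RefSeq promoter entry (6.67%) and in 1.22% of all genes with one. The 1 gene is Hmgcs1, which makes HMG-CoA. Its upstream sequence (RefSeq, build GRCm38.p6, chr13:119690101-119690350, plus strand, 5′ to 3′) is shown because it is the member in which the element and the fall meet. The capitals mark the match, which starts 137 bases before the start site.
Hmgcs1: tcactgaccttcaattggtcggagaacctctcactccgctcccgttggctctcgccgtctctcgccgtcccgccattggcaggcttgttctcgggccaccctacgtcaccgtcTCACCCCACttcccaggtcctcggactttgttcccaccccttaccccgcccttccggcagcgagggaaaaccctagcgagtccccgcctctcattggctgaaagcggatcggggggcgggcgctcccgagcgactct
CCAAT, the core of the NF-Y site that often accompanies the element, occurred in 14 of the 15 promoters and in 37.5% of all, but also in 21 of 25 promoters of the endoplasmic reticulum folding and stress list (84%), a list in which 1 of 30 genes was called. The sterol element occurred in 1 of those 25 and in none of 8 promoters of the list of the SREBP2 pathway and LDL uptake. Hmgcs1 had 582, 437 and 641 CPM in LAC and 104, 114 and 137 CPM (lowest, median, highest) in ID6, without overlap. It fell by 2.25 on the log2 scale (SE 0.19, edgeR adjusted p = 3.05e-08) and was 1.51 below NUL. A match is a description of these letters, and binding was not measured.

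Most control genes of sterol balance fell with the enzymes, by a smaller median step. Of 10 tested genes of the SREBP2 pathway and LDL uptake, 6 fell and 1 rose, with a median of -0.57. Insig1, which holds SREBPs in the membrane, fell by 2.00 on the log2 scale and Stard4, a sterol carrier, by 1.41. Stard4 had 141, 140 and 145 CPM in LAC and 45.8, 53.2 and 66.4 CPM in ID6 (lowest, median, highest), the narrowest LAC spread of these genes. Srebf2 itself fell by 0.72 (edgeR adjusted p = 1.46e-05). Mylip, a ubiquitin ligase that limits lipoprotein uptake, rose by 0.73. Against NUL only Srebf2 (-0.58) and Stard4 (-0.83) were called lower; the interval of Insig1 (-1.71 to -0.17) lay below 0, but its adjusted p missed the threshold.

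**Figure D2:**
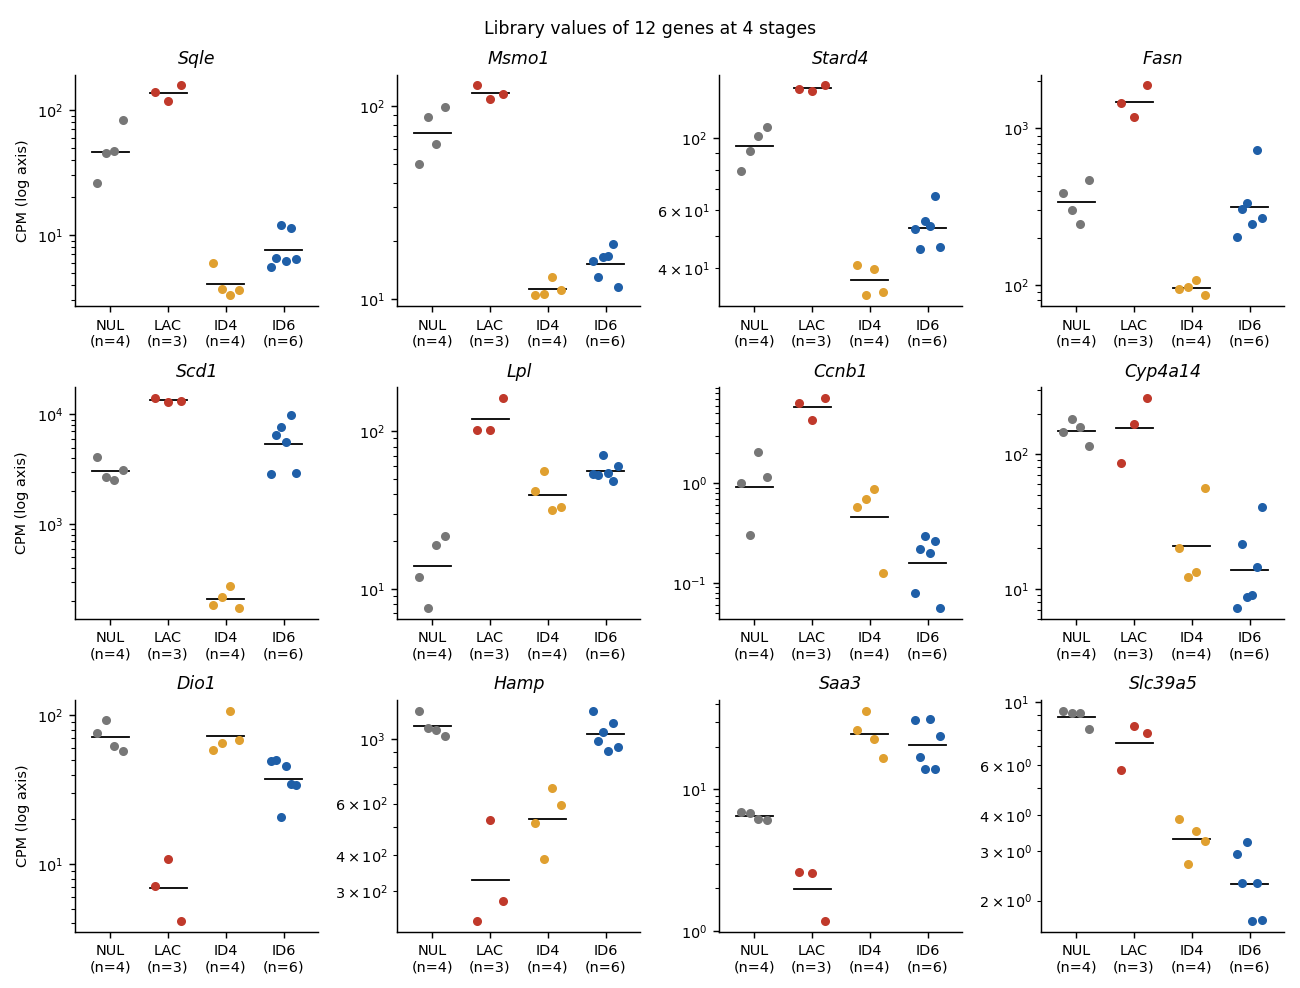
CPM of 12 genes in each library (points) at NUL, LAC, ID4 and ID6, with geometric means (bars), each panel with its own logarithmic axis. Sqle and Msmo1 at ID6 lie under every NUL library, Fasn at ID6 overlaps them, Lpl at ID6 lies above them, and Hamp at ID6 lies between 910 and 1249 CPM, above LAC.

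Fatty acid and triglyceride synthesis was lower than in lactation in most members, and few were called against the never-pregnant level. Of its 26 genes 16 fell against LAC and none rose, with a median of -0.90. Without LAC_240, or at an adjusted p under 0.01, 11 fell, which is no longer most of them. In LAC 13 of them had been higher than in NUL. At ID6 2 were called against NUL, both lower, the median difference was 0.09, and 18 of the 26 intervals lay within 1 log2 unit of 0. Between ID4 and ID6 12 of the 26 rose and none fell, in a comparison that called 8.53% of all genes (3.89% higher, 4.64% lower). The mean log2 level of day-arm clock genes minus that of night-arm clock genes, centred over all libraries, did not overlap between these groups. It was -0.249 to 0.864 in ID4 and -1.096 to -0.484 in ID6. In LAC_200, LAC_213 and LAC_240 it was -0.565, -0.701 and 0.648. Its part in these rises was not tested.

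Fasn (ENSMUSG00000025153, chromosome 11, 120805846 to 120824547), fatty acid synthase, had 1445, 1191 and 1892 CPM in LAC and 202, 287 and 730 CPM in ID6 (lowest, median, highest). All ID6 livers were below all LAC livers, and 1 of them, ID6_230, stood well above the other 5. Fasn fell by 2.12 on the log2 scale (SE 0.46, edgeR adjusted p = 0.00274). Its difference from NUL was -0.02 with a 95% interval of -0.93 to 0.90, wide enough to hold almost a 2-fold change either way. From ID4, where it averaged 95.9 CPM, it rose by 1.86 (edgeR adjusted p = 0.0185).

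Scd1, the desaturase that makes oleate, had risen most of the list since ID4, by 4.80 on the log2 scale (edgeR adjusted p = 4.44e-06). It had 14149, 13065 and 13200 CPM in LAC, 212 ± 45.1 CPM at ID4 (SD, n = 4), and 2865, 6044 and 9926 CPM in ID6 (lowest, median, highest). The ID6 livers spread more than 3-fold and stayed below LAC, a fall of 1.19 on the log2 scale (SE 0.37, edgeR adjusted p = 0.0291). Of the 9 fits that left out a library 6 lost this call, namely those without any 1 of the 3 LAC libraries (largest edgeR adjusted p 0.0866, without LAC_200) or without ID6_232, ID6_201 or ID6_218. Against NUL, at 2538 to 4134 CPM, Scd1 differed by 0.92 (interval 0.18 to 1.65) and was not called. In 16 libraries Scd1 had a count that was not whole.

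Thrsp, a thyroid and lipogenesis responsive protein, fell by 2.34 and Gpam, which starts triglyceride assembly, by 1.58 on the log2 scale. Pnpla3, a lipase paralogue induced with lipogenesis, fell by 2.31, but of the 9 fits that left out a library 8 lost the call (largest edgeR adjusted p 0.0842, without LAC_240; held without ID6_230 only). Acaca, acetyl-CoA carboxylase, was not called (log2 fold change -0.85, edgeR adjusted p = 0.0635), with counts not whole in all 27 libraries. The regulators were not called. Srebf1 had 462, 423 and 578 CPM in LAC and 540, 694 and 789 CPM in ID6 (lowest, median, highest), a log2 difference of 0.48 that was not called. Mlxipl, which encodes ChREBP, differed by -0.06 (edgeR adjusted p = 0.891). The 2 genes below NUL were the desaturases of long polyunsaturated fatty acids, Fads1 (-0.58, lost without NUL_221) and Fads2 (-0.70), which had also fallen against LAC by 0.74 and 0.71.

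**Figure D3:**
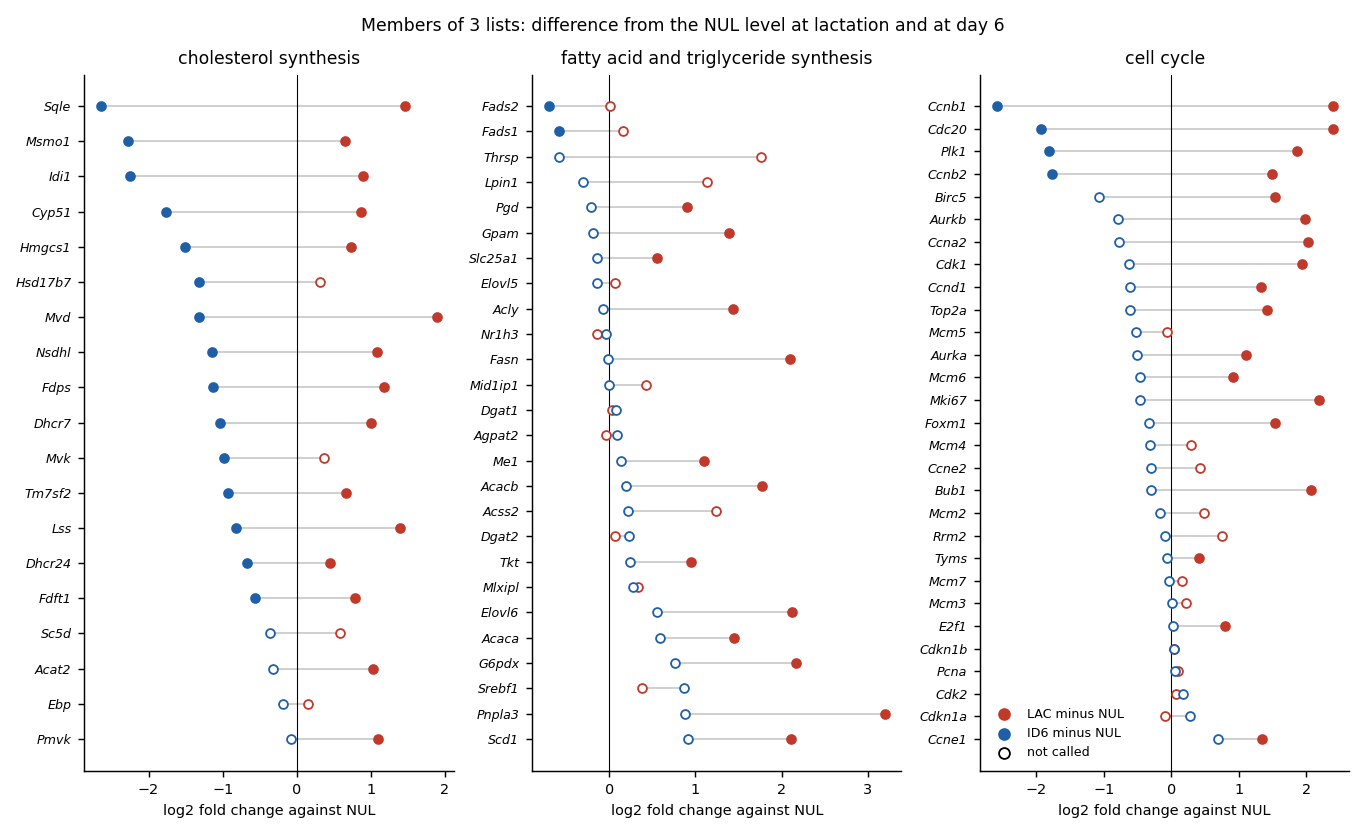
Log2 fold change against NUL of the tested members of 3 lists (19 of 20 for cholesterol synthesis), in LAC (red) and in ID6 (blue), filled where called by edgeR at an adjusted p under 0.05; both are measured against the same NUL libraries. Cholesterol genes lie right of 0 in LAC and left of 0 in ID6, fatty acid genes in ID6 lie between -0.70 and 0.92, and 4 mitotic genes are called below 0.

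Lipoprotein lipase, counted here in the lipid droplet and lipase list, was above the never-pregnant level. Lpl (ENSMUSG00000015568, chromosome 8, 68880491 to 68907448), lipoprotein lipase, which frees fatty acids from lipoproteins and is low in adult liver, had 102, 102 and 163 CPM in LAC, 48.3, 53.9 and 70.5 CPM in ID6 (lowest, median, highest) and 7.54 to 21.8 CPM in NUL. The 3 groups did not overlap. Lpl fell from LAC by 1.11 on the log2 scale (SE 0.27, edgeR adjusted p = 0.00607; lost without LAC_240, edgeR adjusted p = 0.0729) and was still 1.91 above NUL (interval 1.33 to 2.48, edgeR adjusted p = 6.69e-04). Fabp5, a fatty acid binding protein whose counts were not whole in any library, fell by 1.61 and Cd36, a fatty acid translocase, by 0.66. Their differences from NUL were 0.78 (interval 0.07 to 1.48) and 0.61 (0.25 to 0.96), not called. The call of Cd36 against LAC was lost without LAC_240 or LAC_213. Of the 20 genes of the list of fatty acid uptake and lipoprotein secretion, which holds Fabp5 and Cd36 but not Lpl, 6 fell and 2 rose, with a median of -0.11. None of the 20 was called against NUL, with 17 intervals within 1 log2 unit of 0; 1 rose without ID6_201, ID6_216, ID6_218, ID6_230 or any 1 of the LAC libraries.

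In the lipid droplet and lipase list 7 of 18 fell and 1 rose, with a median of -0.29, and only 3 fell without LAC_240. Abhd5, the coactivator of adipose triglyceride lipase, fell by 0.82 and was not called against NUL (difference 0.03, interval -0.20 to 0.26). Lipg, endothelial lipase, fell by 0.96 (lost without LAC_213 or LAC_240) and was 1.44 below NUL. Plin2, the main droplet coat protein of hepatocytes, had 300, 304 and 245 CPM in LAC and 259, 299 and 370 CPM in ID6 and was not called.

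Part of fatty acid oxidation also stood below the never-pregnant level. Of its 27 genes 10 fell and 1 rose against LAC (median -0.21), and 7 were lower than in NUL and none higher (median -0.34). The largest falls were in cytochrome P450 enzymes of omega-oxidation, which are PPARα targets. Cyp4a14 had 85.4, 169 and 262 CPM in LAC and 7.16, 11.8 and 40.6 CPM in ID6 (lowest, median, highest), against 114 to 183 CPM in NUL. No ID6 library overlapped with LAC, a condition of the naming rule, or with NUL. Its log2 differences were -3.35 from LAC (SE 0.65, edgeR adjusted p = 9.87e-04) and -3.15 from NUL (edgeR adjusted p = 0.0117), while LAC and NUL differed by 0.19 and were not called.

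Cyp4a10 had 361, 457 and 386 CPM in LAC and 15.9, 22.3 and 69.8 CPM in ID6, a fall of 3.74; LAC had been 2.48 above NUL, and ID6 was not called against NUL (-1.26, interval -2.33 to -0.19). Acot1, a thioesterase, fell by 2.01 and Eci3, an enoyl-CoA isomerase, by 2.10. Both have close paralogues, and the counts of Cyp4a10, Acot1 and Eci3 were not whole in 26, 26 and 21 libraries. The other 6 genes below NUL lay closer to it, among them Cpt2 with a log2 difference of -0.47, Eci1 with -0.43, Acadl with -0.35, Acadm with -0.34 and Hadhb with -0.33. Counts of Hadhb were fractional in all 27 libraries. Of 10 fits that each left out a library, the call against NUL was lost in 9 for Acadm (kept without ID6_232), in 8 for Eci1 (kept without ID6_201 or ID6_230), in 4 for Hadhb (NUL_221, NUL_226, NUL_227 or ID6_216) and in 1 for Cpt2 (NUL_221). That of Acadl held in all 10. The call of Hadhb was also lost with an effective length offset (edgeR adjusted p = 0.562) and on TPM values (limma adjusted p = 0.573 and 0.576), where its difference was as small as -0.20, and those of Acadm and Eci1 were lost on TPM values too. These 5 encode the carnitine transfer and the chain-shortening steps in mitochondria. Cpt1a, the entry to oxidation, was not called against LAC (0.35), nor was Ppara (0.07).

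No gene of the glucose production and glycolysis list was called against the never-pregnant level at ID6. Of 20 genes 6 fell against LAC and none rose (median -0.17); in LAC 8 had been higher than in NUL, at ID6 none was called, and all 20 intervals lay within 1 log2 unit of 0. Pfkfb1, which sets fructose-2,6-bisphosphate, had 26.9, 23.95 and 26.8 CPM in LAC and 6.55, 8.59 and 12.3 CPM in ID6 (lowest, median, highest), so the groups did not overlap. It fell by 1.55 on the log2 scale (edgeR adjusted p = 2.79e-06). Pklr, pyruvate kinase, fell by 0.87, a call lost without any 1 of the LAC libraries. Pck1, the first committed enzyme of glucose production, had 682, 369 and 876 CPM in LAC and 492, 1360 and 2317 CPM in ID6, a log2 difference of 1.12 that was not called (edgeR adjusted p = 0.0602). G6pc was not called either (0.79, and 0.475 to 1.399 over fits without 1 library).

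In amino acid breakdown and the urea cycle, 7 of 30 genes fell and 1 rose (median -0.10). On log2(TPM + 0.1) values 6 rose, and the 1 rise was lost without ID6_201, ID6_216 or any 1 of the LAC libraries. Bhmt, which remethylates homocysteine with betaine, had 4171, 4240 and 3472 CPM in LAC and 729, 1530 and 1884 CPM in ID6, a fall of 1.51 on the log2 scale (SE 0.27, edgeR adjusted p = 3.06e-04). It was 1.11 below NUL, a call lost in 4 of 10 fits without 1 library (NUL_221, NUL_227, NUL_220 or ID6_216), and its counts were not whole in any of the 27 libraries. Asl of the urea cycle fell by 0.96, Gpt2, alanine aminotransferase, by 0.74 and Gnmt, glycine methyltransferase, by 0.73, and none of these was called against NUL. Oat, ornithine aminotransferase, was not called against LAC (0.30) and was 0.79 below NUL; in LAC it had been 1.09 below. Cps1, the entry to the urea cycle, differed by -0.02.

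Bile acid and sterol export genes moved in both directions, 4 up and 3 down of 22 (median -0.03). The count of rises was 2 without LAC_200 or LAC_213. Cyp8b1, which makes cholic acid, fell by 1.08 and was 0.57 below NUL, a call lost in 7 of 10 fits without 1 library (kept without NUL_226, ID6_218 or ID6_230). Abcg8 and Abcg5, the paired exporter of cholesterol into bile, rose by 1.08 and 0.86; the call of Abcg5 was lost without any 1 of the LAC libraries. Nr0b2, the repressor SHP, rose by 1.22, a call lost without LAC_200, LAC_213, ID6_201 or ID6_232. Cyp7a1, the rate-limiting enzyme of bile acid synthesis, had 174, 206 and 90.8 CPM in LAC and 29.1, 43.1 and 202 CPM in ID6; 1 liver, ID6_230, was as high as lactation, and the difference was not called (-0.86, edgeR adjusted p = 0.312).

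Most cell cycle genes were lower than in lactation. Of 29 members 21 fell against LAC and none rose, with a median of -1.38; in LAC 18 had been higher than in NUL. On log2(TPM + 0.1) values 12 fell. The 4 largest falls were in mitotic genes. Ccnb1, cyclin B1, had 6.38, 4.26 and 7.15 CPM in LAC and 0.0556, 0.209 and 0.296 CPM in ID6 (lowest, median, highest), a fall of 4.98 on the log2 scale (SE 0.56, edgeR adjusted p = 1.30e-06). Cdc20, which starts anaphase, fell from 16.4, 11.3 and 15.8 CPM to between 0.181 and 1.02 CPM, by 4.32. Plk1, a mitotic kinase, fell by 3.68 and Ccnb2, cyclin B2, by 3.27. None of these groups overlapped.

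The same 4 genes were the members called below NUL, by 2.59, 1.93, 1.82 and 1.77 in that order. Each of those calls was lost without NUL_226 (edgeR adjusted p = 0.0673, 0.0540, 0.0805 and 0.174). Mki67, a marker of cycling cells, had 17.6, 15.2 and 23.8 CPM in LAC and 1.69, 2.57 and 6.10 CPM in ID6, a fall of 2.65; it was not called against NUL (-0.46, interval -1.36 to 0.44). Ccnd1, cyclin D1 of the G1 phase, had 105, 185 and 157 CPM in LAC and 26.98, 33.3 and 55.8 CPM in ID6, a fall of 1.94. Its difference from NUL was -0.61 (interval -1.22 to -0.01), not called, and its counts were not whole in 26 libraries. Myc and Cdkn1a were not called against LAC (-0.78 and 0.37). In bulk tissue, fewer cycling cells and less RNA per cell cannot be told apart, here and for each cell type below.

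Few protein folding genes were called. Of 30 endoplasmic reticulum folding and stress genes, 1 fell (Sel1l, by 0.40, lost without LAC_240) and none rose, with a median of -0.15. Hspa5, the main chaperone there, had 1508, 1958 and 1508 CPM in LAC and 897, 1230 and 1578 CPM in ID6 and was not called (-0.43), nor were Xbp1 (0.06) and Ddit3 (-0.06). The ER stress element, CCAAT and CCACG 9 bases apart, lies within 250 bases before the start of 9 of the 25 list members with a promoter entry and of 0.13% of all genes; Sel1l holds no match. Ribosome biogenesis had 2 of 28 genes lower, Nhp2 (-0.48) and Nop16 (-0.31, lost without LAC_213). Over all tested genes 7.96% were lower, a similar share. Of 19 cytosolic and mitochondrial heat shock genes 5 fell and none rose (median -0.46), and 3 fell without ID6_218, LAC_213 or LAC_240. Hspa4l fell by 1.13, Hspd1 by 0.56 and Hspe1 by 0.46. Hspa1b had 92.8, 278 and 265 CPM in LAC and 28.7, 54.3 and 86.0 CPM in ID6, a fall of 1.94 that was lost without LAC_213, LAC_240 or ID6_218; its reads are shared with the near-identical Hspa1a, which was not called (-1.48).

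Of the acute phase proteins, which hepatocytes secrete in inflammation, 16 of 27 were not called between ID6 and LAC. Of the 27 genes 10 rose against LAC and 1 fell (Crp, by 0.43, lost without LAC_213), with a median of 0.51. Against ID4 16 fell and 1 rose, and against NUL 1, Saa3, was called. The number that rose was 6 without LAC_213, 5 without LAC_240 and 16 on log2(TPM + 0.1) values. Saa3 (ENSMUSG00000040026, chromosome 7, 46711998 to 46715700), a serum amyloid also made by macrophages, had 2.604, 2.58 and 1.18 CPM in LAC and 14.0, 20.3 and 31.2 CPM in ID6 (lowest, median, highest). All ID6 livers lay above LAC, a condition of the naming rule, and above the NUL range of 6.03 to 6.94 CPM. Its log2 differences were 3.36 from LAC (SE 0.42, edgeR adjusted p = 1.04e-05) and 1.74 from NUL (edgeR adjusted p = 0.00979), and macrophage markers rose beside it (below). Their part in it was not tested.

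Saa1 had 5.40, 4.85 and 4.40 CPM in LAC and 25.9, 43.7 and 78.9 CPM in ID6, a rise of 3.24, and Saa2 rose by 3.28; both calls were lost without any 1 of the LAC libraries (largest edgeR adjusted p 0.0807 and 0.0993, without LAC_240). At ID4 the mean of Saa1 was 574 CPM, and ID6 was 3.64 below ID4 on the log2 scale. The ID4 livers spread from 58.6 to 1242 CPM, and the lowest, ID4_215, lay inside the ID6 range. The interval of Saa1 against NUL was -0.93 to 2.03. Orm3, an orosomucoid, rose by 2.17. Lcn2, lipocalin 2, had 1.98, 1.86 and 2.03 CPM in LAC and 5.27, 9.28 and 21.1 CPM in ID6; the groups did not overlap, but the test just missed the threshold (log2 fold change 2.44, edgeR adjusted p = 0.0511). Socs3, a feedback inhibitor of this response, was not called (0.51).

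Hamp (ENSMUSG00000050440, chromosome 7, 30942368 to 30944032) encodes hepcidin, the hormone that blocks iron release into blood. It had 237, 529 and 279 CPM in LAC and 910, 1018 and 1249 CPM in ID6 (lowest, median, highest), a rise of 1.58 on the log2 scale (SE 0.20, edgeR adjusted p = 4.77e-06). Its difference from NUL was -0.09 (interval -0.44 to 0.27), while ID4, at 544 CPM, had been lower (edgeR adjusted p = 0.00187). Tfrc, the transferrin receptor, moved the other way, from 87.6, 96.3 and 127 CPM to between 40.6 and 62.8 CPM, a fall of 1.08 (lost without LAC_240), and was not called against NUL (0.24, interval -0.32 to 0.81). Of 22 zinc, iron and metallothionein genes 8 fell and 3 rose (median -0.11), and 4 fell without LAC_213, 5 without LAC_240 or ID6_232. On log2(TPM + 1) values 5 fell and 6 rose.

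Slc39a5 fell below both reference groups. This gene, a zinc importer, had 5.79, 8.25 and 7.77 CPM in LAC and 1.69, 2.32 and 3.21 CPM in ID6 and was below both lactation (-1.62, SE 0.22, edgeR adjusted p = 5.71e-06) and NUL (-1.92, edgeR adjusted p = 1.90e-06). LAC and NUL were not called apart (-0.30). It averaged 3.33 CPM at ID4. Slc39a4, another importer, fell by 0.42, a call lost in 6 of 9 fits without 1 library (kept without ID6_201, ID6_209 or ID6_216). Mt1, a metallothionein, had 193, 556 and 266 CPM in LAC and 52.1, 79.3 and 154 CPM in ID6 and fell by 1.82 (lost without LAC_213). The fall of Mt2 (2.10) was lost in 6 of 9 such fits (kept without ID6_230, LAC_200 or LAC_240). LAC_213 held 223 CPM of Mt2, against 30.8 in LAC_200 and 57.1 in LAC_240. Without LAC_213 the fall was 0.86 (edgeR adjusted p = 0.533).

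Among hormone genes the thyroid deiodinase rose. Dio1 (ENSMUSG00000034785, chromosome 4, 107291465 to 107307169), which activates thyroxine, had 7.17, 10.9 and 4.14 CPM in LAC and 20.9, 40.2 and 50.03 CPM in ID6 (lowest, median, highest). It rose by 2.40 on the log2 scale (SE 0.39, edgeR adjusted p = 1.51e-04), yet all 6 livers stayed below the NUL range of 57.2 to 93.4 CPM. The difference from NUL was -0.89 (interval -1.51 to -0.26, edgeR adjusted p = 0.186), and the 4 livers of ID4 had averaged 74.5 CPM. Thrb, the liver thyroid hormone receptor, differed by 0.00 from LAC. Of 13 genes in this list 3 rose and 3 fell; Me1 (-0.96, lost without LAC_213, counts not whole in any library) and Thrsp are shared with lipogenesis, and Slc16a10, a transporter, rose by 0.73, a call lost without LAC_240, LAC_200, ID6_232 or ID6_209.

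Of 22 genes of the prolactin, growth hormone and IGF list 3 rose and 3 fell (median 0.09), and none was called against NUL, with 14 of the 22 intervals within 1 log2 unit of 0. The 3 that rose were the growth hormone receptor Ghr (0.57) and the signal transducers Stat5a and Stat5b (0.58 each), whose counts were not whole in any library. The 3 that fell were Gpc3, a glypican of fetal liver (-1.80), Akr1b7, an aldo-keto reductase (-1.55), and Mup20, a urinary protein (-0.88). Gpc3 had 22.8, 31.8 and 34.3 CPM in LAC and 6.20, 8.85 and 9.54 CPM in ID6, against 2.33 to 7.30 CPM in NUL, a difference of 0.82 from NUL (interval 0.27 to 1.37) that was not called. Akr1b7 was 1.17 above NUL (interval 0.46 to 1.87), also not called. H19, a fetal noncoding RNA, had 227.1, 179 and 813 CPM in LAC and 26.1, 34.5 and 145 CPM in ID6, a fall of 2.97 (edgeR adjusted p = 4.53e-04); it fell by 1.97 without LAC_240 and fell by 3.61 without ID6_216. Prlr (0.18), Igf1 (0.11), Socs2 (0.02) and Cish (-0.35), the receptor for prolactin and 3 targets of STAT5, were not called. The value of Cish ran from -1.13 to 0.50 over fits without 1 library, so its direction is not settled.

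Drug-metabolising enzymes split by gene. Of 26 cytochrome P450 genes 7 fell and 4 rose (median 0.03). The falls numbered 4 without LAC_213 and 3 without LAC_240, and the rises 1 or 2 without ID6_201, ID6_218, ID6_232 or any 1 of the LAC libraries. Cyp2e1, an ethanol oxidiser of the pericentral zone, had 1460, 1617 and 1408 CPM in LAC and 2704, 3780 and 5076 CPM in ID6 (lowest, median, highest). It rose by 1.34 on the log2 scale (SE 0.19, edgeR adjusted p = 1.26e-05) and differed from NUL by -0.14 (interval -0.48 to 0.19). Cyp2b10, a target of the receptor CAR, fell by 1.41, Cyp2c55 by 1.65 (lost without LAC_240) and Cyp3a41a, a female-typical enzyme with counts not whole in 26 libraries, by 0.97 (lost without LAC_213). Cyp2a4 was not called against LAC (-0.31) and was 0.99 above NUL, the only P450 of the list so called; its counts were not whole in any library. Cyp3a11 and Nr1i3, which encodes CAR, were not called (-0.45 and 0.37).

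Among conjugation enzymes more members fell than rose. Of 23 tested 9 fell and 2 rose (median -0.28); in LAC 6 had been higher than in NUL, and at ID6 none was called against NUL, with 20 of the 23 intervals within 1 log2 unit of 0. The rises numbered 1 without ID6_201, ID6_209, ID6_218, ID6_232, LAC_200 or LAC_240. Glutathione transferases led the falls. Gstm3 had 31.1, 22.7 and 31.2 CPM in LAC and 6.21, 7.10 and 9.28 CPM in ID6 and fell by 1.95 (SE 0.25, edgeR adjusted p = 9.28e-06), and it differed from NUL by -0.04 (interval -0.55 to 0.46). Gstm2 fell by 1.34, Gstt3 by 1.12 and Gstm1 by 0.85, and their ID6 and LAC libraries did not overlap.

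Macrophage and antigen presentation genes were higher than in lactation. All 12 Kupffer cell and macrophage markers rose, with a median of 0.99, and 6 of them were also above NUL. The summed level ran from 369 to 516 CPM in LAC, 746 to 1130 in ID6 and 571 to 706 in NUL, and every ID6 liver lay above every NUL liver. Clec4f, a lectin of Kupffer cells, rose by 0.88, Adgre1, the antigen F4/80, by 1.25 and Cd5l, a macrophage secretory protein, by 1.39, and the last 2 were above NUL by 0.50 (lost without NUL_221, NUL_227, ID6_216, ID6_201 or ID6_218) and 0.86. No defining macrophage marker was at 0. The share of counts in albumin was lower in ID6 over the same comparison. With mitochondrial genes and the 20 most abundant genes left out, all 12 markers were still called higher. That fit called 2697 genes in all, against 2694, so it differed little from the main one. A change in the hepatocyte share of RNA was not tested.

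**Figure D4:**
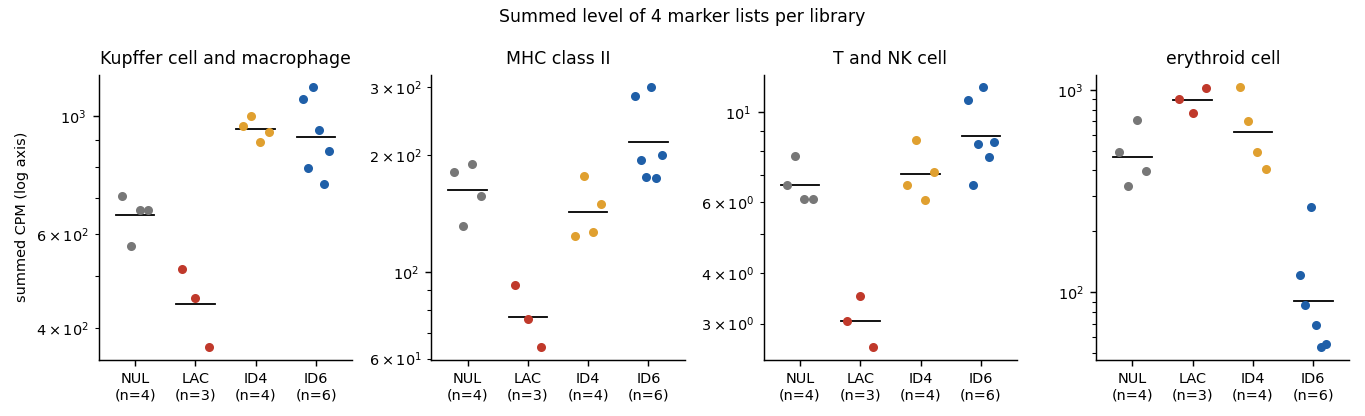
Summed CPM of the tested markers of 4 lists in each library (points) at NUL, LAC, ID4 and ID6, with geometric means (bars) on logarithmic axes. Macrophage and MHC class II sums are lowest in LAC, and the erythroid sum of all 6 ID6 libraries lies below every other library shown.

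Of 9 MHC class II genes, which present antigen, 8 rose (median 1.65); 8 had been lower in LAC than in NUL and none was called between ID6 and NUL, with 6 of the 9 intervals within 1 log2 unit of 0. Cd74, the invariant chain, had 38.2, 31.2 and 27.6 CPM in LAC and 77.0, 93.4 and 138 CPM in ID6 (lowest, median, highest), a rise of 1.66 (SE 0.25, edgeR adjusted p = 5.45e-05). H2-Aa rose by 1.94, H2-Eb1 by 1.73 and H2-DMb1 by 1.93. H2-DMb1 was low in LAC, at 0.776, 0.395 and 0.190 CPM, and rose by 2.56 without LAC_200. The liver ID6_218 was the highest for all 4. Between ID4 and ID6 4 of the 9 rose and none fell.

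Of 13 T and NK cell markers 8 rose, from sums of 2.63 to 3.51 CPM to sums of 6.61 to 11.5 CPM, and 5 rose without LAC_240. These are low counts, and no fold is given for them. Of 10 B and plasma cell markers 3 rose (1 without LAC_213), and their sums overlapped, at 20.4 to 34.1 CPM in LAC and 28.6 to 39.7 in ID6. Of 9 neutrophil markers 2 rose. Of 20 interferon-stimulated genes 5 rose and none fell (median 0.21), and 2 rose without LAC_213 and 3 without LAC_240. They include Gbp2 (1.29) and Gbp3 (1.07), guanylate-binding GTPases, Irf7 (0.71, lost without LAC_213 or LAC_240), Oas2 (1.01, lost without LAC_213) and Mx1 (0.73, lost in 6 of 9 fits without 1 library, kept without ID6_201, ID6_209 or ID6_216). Gbp2b, outside that list, had 3.14, 2.92 and 2.82 CPM in LAC and 6.49, 10.2 and 19.1 CPM in ID6.

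A minority of matrix genes was called against lactation. Of 25 collagen and matrix genes 7 rose and none fell (median 0.47); 11 had been lower in LAC than in NUL, and none was called between ID6 and NUL, with 23 of the 25 intervals within 1 log2 unit of 0. The number that rose was 14 without LAC_240, the lactating liver highest in Col1a1, Col3a1 and Col5a2. Col3a1, a fibrillar collagen, had 13.2, 12.4 and 28.7 CPM in LAC and 34.3, 40.0 and 45.8 CPM in ID6 and rose by 1.15 (edgeR adjusted p = 0.00454). Mmp2, a gelatinase, rose by 1.07, Col5a2 by 0.62 (lost without LAC_213, LAC_200 or ID6_230) and Tgfb1, a fibrogenic cytokine, by 0.52. Col1a1 was not called (0.70). Of the stellate cell markers 5 of 10 rose (3 without LAC_240) and of the sinusoidal endothelial markers 6 of 10, with medians of 0.39 and 0.34. Of 8 bile duct markers 1 rose (none without LAC_213), where 8.44% of all tested genes were higher.

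Hemoglobin RNA was low. Of 7 erythroid genes tested 6 fell, and 5 were below NUL; Slc4a1, 1 of these, had almost no counts in ID6, and no fold is given for it. The erythroid sum was 768 to 1017 CPM in LAC, 336 to 713 in NUL and 407 to 1028 at ID4, but 53.8 to 265 in ID6. Hbb-bs, a beta globin, had 441, 412 and 459 CPM in LAC and 26.1, 41.2 and 143 CPM in ID6 (lowest, median, highest), with the highest value in ID6_216. It fell by 2.93 on the log2 scale (SE 0.44, edgeR adjusted p = 7.65e-05). Hbb-bt fell by 3.59 (without ID6_216 it fell by 4.26), Hba-a1 by 3.30 and Hba-a2 by 3.17, and all 4 globins were below NUL by 2.01 to 2.54; that of Hbb-bs was lost without NUL_226. In a fit of the ID6 and NUL libraries alone all 4 of these calls against NUL were lost (edgeR adjusted p = 0.0644 for Hba-a1, 0.104 for Hba-a2, 0.165 for Hbb-bs and 0.11 for Hbb-bt). Globin genes have near-identical copies, their counts were not whole in any library, and blood left in the organ was not measured, so red cell content and red cell formation cannot be told apart.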

How the data were processed

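Libraries were made from Trizol RNA with the NEBNext Ultra kit, per the labels' protocols. Reads were handled with STAR 2.6.1a and RSEM 1.3.1 on mm10/GRCm38, per the submitters' processing notes. The deposited tables hold 1 expected count per gene, RSEM's estimated count of reads, not normalised between libraries, and a TPM, scaled by the authors to gene length, per the file headers. Trimming and strand use are not given in the sources used here. Genes were placed by identifier in GENCODE M21 (51633 of 51826 found).

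Expected counts were rounded, filtered with filterByExpr by stage (16428 genes kept), TMM-scaled and fitted in edgeR 4.0.16 (R 4.3.3) over all 27 libraries and 7 stages, with quasi-likelihood F tests, two-sided, adjusted by Benjamini-Hochberg over all genes tested. No pair of replicates agreed within sampling noise. Alternatives used DESeq2 1.42.0, limma 3.58.1 on log2(TPM + 1) and log2(TPM + 0.1), other filters and scalings, effective length, covariates and leaving out each library. The single-gene alternatives against NUL, and those of genes named outside the rule, were added after the data were seen.

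Genes named are the 10 largest rises and falls called without overlap between groups, with log2 CPM averaging 1 or more, and members of the lists by the same kind of rule; others were chosen after their values were seen. Members, lists and rules were chosen with earlier results of these data known. Values of some list members are not reported here; they stay in the counts of their lists.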

Additional observations from a re-analysis of the deposited data

Results flagged for a closer look

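Of 154 gene levels and marker sums examined over the 6 ID6 libraries, 16 had 1 library far from the others by Dixon's test, which chance does in about 1 of 20. The items are not independent, since the erythroid sum holds the globin genes, and CPM were not logged. The 16 flags therefore cannot be compared with that rate. The library ID6_216 was the highest for 4 globin genes, with 143 CPM for Hbb-bs, 11.7 for Hbb-bt, 38.8 for Hba-a1 and 64.5 for Hba-a2, and for the erythroid sum at 265 CPM. It was also the highest for H19 (145 CPM), Cish (47.9 CPM) and the hepatocyte sum (165405 CPM), which holds albumin, and the lowest for Mmp2 (1.77 CPM). ID6_230 was the highest for Fasn (730 CPM) and Mki67 (6.10 CPM). ID6_218 was the highest for Gbp2b (19.1 CPM) and for Slc4a1 (0.0144 CPM, against 0 in the other 5), and the lowest for Gpc3 (6.20 CPM). ID6_201 was the lowest for the bile duct sum (44.6 CPM), and ID6_232 was the highest for Cyp4a10 (69.8 CPM).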

How the results depend on the processing

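Of the log2 fold changes of named genes called between ID6 and LAC (108 genes) or ID6 and NUL (37), none changed sign under an alternative that gave a value. Leaving out 1 library ended 31 of the first and 18 of the second calls in at least 1 fit, and the other alternatives 17 and 15. At an adjusted p under 0.01 the genes called were 9.4% of those tested between ID6 and LAC (1545 genes), 5% between LAC and NUL (822), 0.408% between ID6 and NUL (67) and 2.79% between ID6 and ID4 (459). DESeq2 called 2.75% (451 genes) between ID6 and NUL, against 1.08% (178) by edgeR. Leaving out 1 library gave 11.3% (1895 genes, without LAC_213) to 16.2% between ID6 and LAC, and 6.79% (1140, without LAC_213) to 10.2% between LAC and NUL. It gave 0.617% (without NUL_221; 0.659% without NUL_227) to 1.36% between ID6 and NUL, and 4.5% (738, without ID4_13; 5.3% without ID4_215, 5.2% without ID6_209) to 8.96% between ID6 and ID4. The share of calls that were higher moved from 37.1% to 67.8% on log2(TPM + 1) between ID6 and NUL, from 46.4% to 32.3% between LAC and NUL and from 45.6% to 82.6% between ID6 and ID4. On log2(TPM + 0.1) values the members called between ID6 and LAC also moved by over 1.5 times in these lists: 13 of the collagen and matrix genes rose (7 on counts), 1 bile acid gene fell (3), 3 lipid droplet genes fell and 2 rose (7 and 1), 4 cytochrome P450 genes fell (7), 4 neutrophil markers rose (2), and 2 genes each of fatty acid synthesis and of glucose production rose (none). In the insulin and glucagon list 1 fell and 2 rose (2 and 1), among the receptors and ion channels 1 fell (3), and of ribosome biogenesis genes 1 fell and 1 rose (2 and none). The calls of Cd36, Pklr, Nop16, Sel1l, Slc39a4, Mt2, Tef, Ebp and Acadm against LAC, and of Ccnb2, Cyp8b1, Grb10, Acadm, Eci1 and Hadhb against NUL, were lost on both TPM scales, and that of Lpl against LAC on log2(TPM + 0.1). A fit of the compared groups alone ended the calls of Scd1, Mt2, Pcp4l1 and Ebp against LAC and of Bhmt, Ccnb2, Cdc20, Cyp8b1, Ntrk2, Adgre1, Acadm and the 4 globins against NUL. The effective length offset ended those of Mt2, Sel1l and Tef against LAC and of Plk1, Cyp8b1, Adgre1, Acadm and Hadhb against NUL. With the clock difference as a covariate the calls of Cxcl1, Pnpla3, Pcp4l1, Slc16a10 and Sel1l against LAC were lost. Without a filter on low counts those of Scd1, Mt2, Cxcl1, Nr0b2, Mx1, Pnpla3, Pcp4l1, Slc16a10, Slc39a4 and Tef against LAC were lost. So were those of Acadm, Bhmt, Cyp8b1 and Ntrk2 against NUL. The causes were not tested. With 3 lactating livers, calls rest on few animals, and genes under 1 CPM on few reads. No paired analysis was possible because no replicate number occurs in both groups of a comparison.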

Other observations

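Some smaller gene groups were not described above. Their counts against LAC stand beside 8.44% of all tested genes higher and 7.96% lower, and in lists this small they cannot be told from those shares. Of 15 insulin and glucagon signalling genes 2 fell (1 without LAC_240) and 1 rose (2 without ID6_201) against LAC. Grb10, an adaptor that dampens insulin receptor signalling, had 32.1, 32.8 and 28.1 CPM in LAC and 18.4, 21.2 and 24.5 CPM in ID6 (lowest, median, highest), and it fell by 0.56 on the log2 scale (edgeR adjusted p = 8.45e-04). It was 0.45 below NUL, a call lost without NUL_226, ID6_216, ID6_201, NUL_221 or NUL_220. Gcgr, the glucagon receptor, rose by 0.38.

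The list of 13 receptors and ion channels was named as low in lactation, with earlier results of these data known. In LAC 4 of them were lower than in NUL and 2 higher. Against LAC 2 rose in ID6 (1 without ID6_232, LAC_200 or LAC_240) and 3 fell (1 without LAC_240). The 2 members described next were low in LAC, and those that fell are not described. Pcp4l1, a calmodulin-binding peptide, had 4.90, 9.04 and 7.32 CPM in LAC, 8.94, 14.9 and 28.6 CPM in ID6 and 39.4 to 56.3 CPM in NUL. It rose by 1.23 (lost without LAC_200, LAC_240, ID6_232 or ID6_201) and was 1.55 below NUL (lost without NUL_227). Ntrk2, a neurotrophin receptor, stood at 0.328 to 1.32 CPM in LAC, 1.32 to 7.77 in ID6 and 14.6 to 24.4 in NUL, and it was not called against LAC (1.76, edgeR adjusted p = 0.133). Its difference from NUL (-2.55, edgeR adjusted p = 0.0356) was lost in 8 of 10 fits without 1 library. Of 21 cell death genes 2 rose and 1 fell. The rises numbered 0 without ID6_216, ID6_218, ID6_232 or LAC_240, 1 without ID6_230, LAC_200 or LAC_213 and 5 by DESeq2, and the falls 0 without LAC_240 and 2 without ID6_209 or LAC_213. Of 10 day-arm clock genes 1, Tef, fell (by 0.64, lost in 5 of 9 fits without 1 library).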
